A study of Mus musculus with 9 samples.

Results

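A set of 10 genes of the myeloid progenitor and granule programme were followed in mouse monocytes after contact with platelets: the progenitor surface genes Cd34 and Kit, the transcription factors Myb, Gfi1, Cebpa and Cebpe, and the azurophil granule genes Mpo, Elane, Prtn3 and Ctsg. They were chosen by name, as 10 of the 55367 gene symbols listed, and all 10 were among the 13707 genes with enough counts to test. Adult monocytes were kept for 4 h with P7 platelets (P7 read here as postnatal day 7, from neonatal mice), with adult platelets or with a control buffer that held no platelets, and were then washed before polyadenylated RNA was sequenced. Each group had 3 libraries, 9 in all. The sources used here give no strain, sex, monocyte source or platelet dose, and do not say whether the libraries of a group came from separate cultures or animals. The p-values below therefore measure the spread between these libraries, which may be technical.

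Monocytes descend from granulocyte-monocyte progenitors. Those progenitors carry CD34 and KIT on their surface, depend on MYB and C/EBP alpha, and load myeloperoxidase and the neutrophil serine proteases into azurophil granules. As cells mature, transcription of these granule genes is shut off and the stored proteins remain, so the messages are usually low in blood monocytes. GFI1, a zinc-finger repressor, and C/EBP epsilon drive the neutrophil branch, and in mice the loss of Gfi1 leads to a lack of neutrophils with an excess of monocytic cells.

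After P7 platelets, Gfi1 was 6.04-fold higher than in control and Kit was 2.63-fold higher, while Cd34, Cebpe, Myb and Elane were lower. Cebpa did not pass the test in any of the 3 comparisons. Adult platelets changed less: of the 10 genes, Myb passed the test, and only just, where 26.4% of all tested genes passed. Between the platelet kinds, all 4 azurophil granule genes were lower after P7 platelets than after adult platelets. Of all tested genes 19.8% were lower there. With 1 library left out, the Prtn3 call was lost in 5 of 9 fits and the Ctsg call in 1.

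The promoters of the 4 granule genes are shown because these genes fell together between the platelet kinds. Each window holds the 250 bases before the RefSeq transcription start (GRCm38.p6, read on the gene's strand). Capitals mark matches to AACNG on either strand, the core bound by MYB, which is known to drive granule genes in progenitors.
Mpo: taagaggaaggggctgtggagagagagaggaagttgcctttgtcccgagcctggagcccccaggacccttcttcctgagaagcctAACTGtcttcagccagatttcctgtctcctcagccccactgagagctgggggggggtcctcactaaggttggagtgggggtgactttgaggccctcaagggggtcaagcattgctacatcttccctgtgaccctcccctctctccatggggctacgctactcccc
Elane: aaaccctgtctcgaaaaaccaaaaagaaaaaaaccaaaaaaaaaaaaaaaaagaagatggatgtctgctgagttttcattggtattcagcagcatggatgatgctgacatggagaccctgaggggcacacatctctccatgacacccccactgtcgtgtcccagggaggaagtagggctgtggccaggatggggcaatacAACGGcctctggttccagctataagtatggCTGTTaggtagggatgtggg
Prtn3: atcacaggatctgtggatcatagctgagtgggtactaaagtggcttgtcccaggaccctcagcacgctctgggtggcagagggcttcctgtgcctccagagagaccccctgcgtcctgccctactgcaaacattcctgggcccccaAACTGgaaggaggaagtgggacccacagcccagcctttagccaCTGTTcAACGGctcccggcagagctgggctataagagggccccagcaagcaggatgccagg
Ctsg: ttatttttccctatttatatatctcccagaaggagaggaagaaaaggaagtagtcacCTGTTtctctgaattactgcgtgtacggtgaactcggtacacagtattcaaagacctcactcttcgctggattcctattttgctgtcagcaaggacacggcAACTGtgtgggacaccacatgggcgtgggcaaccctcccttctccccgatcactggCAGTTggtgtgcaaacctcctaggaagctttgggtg
The windows lie at chr11:87793534-87793783 on the plus strand, chr10:79886062-79886311 on the plus strand, chr10:79879417-79879666 on the plus strand and chr14:56102575-56102824 on the minus strand, in the order printed. The MYB core occurred 1 time in the Mpo window, 2 times in Elane, 3 times in Prtn3 and 3 times in Ctsg, and 74.2% of 32851 such mouse windows hold it at least once. The ETS core GGAA, the core of sites of PU.1, was in all 4 windows and is in 93.4% of all windows. The spaced letters TTNNGNAA, searched for the C/EBP family, were in 0 of the 4, against 36.8% of all windows. The RUNX letters TGTGGT were in the Ctsg window alone and are in 14% of all windows. The core AATC of GFI1 sites was in the Mpo and Ctsg windows and is in 69% of all windows. All motifs were searched on both strands, and a match is a description of letters, not a bound site.

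In the annotation used for positions (GENCODE M21, GRCm38), Prtn3 (chromosome 10, 79874476 to 79883174) and Elane (chromosome 10, 79886247 to 79888215) lie on the plus strand with 3072 bases between them. The RefSeq starts of Prtn3, Elane and Mpo lie inside the longer GENCODE genes. Every marked match in their windows lies past the GENCODE start of its gene. Mpo is on chromosome 11 at 87793581 to 87804413 and Ctsg on chromosome 14 at 56099881 to 56102574. Gfi1 is on chromosome 5 at 107716657 to 107726036, and Kit on the same chromosome at 75574916 to 75656722. Cd34 is on chromosome 1 at 194938819 to 194961279, Myb on chromosome 10 at 21124935 to 21160984, Cebpa on chromosome 7 at 35119293 to 35121928 and Cebpe on chromosome 14 at 54710360 to 54712174. Cd34, Myb, Gfi1, Cebpa, Mpo and Prtn3 each overlap an exon of another annotated gene, and the strand setting of the counting is not given in the sources used here, so reads from the overlaps cannot be told apart.

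Total counts were 29687341 to 35333463 per library after P7 platelets, 30974956 to 34394579 after adult platelets and 35314701 to 37065564 in control. The monocyte marker list, with 14 of 14 genes tested, held 2.91% to 3.46% of the counts after P7 platelets, 3.06% to 3.59% after adult platelets and 2.95% to 3.22% in control. Platelet markers held 0.123% to 0.141% after P7 platelets, 0.0726% to 0.135% after adult platelets and 0.00255% to 0.00286% in control. Erythroid markers held 4.37% to 5.52% after P7 platelets, 0.0524% to 0.182% after adult platelets and 0.00276% to 0.00326% in control. The immunoglobulin light chain gene Igkc stood above 300 CPM (counts as a rate of the library total) in P7 replicate 1, adult replicates 1 and 3 and control replicate 1. The basophil and mast cell list also held a larger share in those 4 libraries, 0.0338% to 0.0409%, than in the other 5, at 0.0177% to 0.0253%. B cell and plasma cell genes held 0.0263% to 0.0912% after P7 platelets, 0.0254% to 0.115% after adult platelets and 0.035% to 0.112% in control, and the T cell gene Cd3e had at most 4 counts in any library. In pooled RNA, fewer cells of a type and less RNA per cell cannot be told apart.

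Of the 10 genes, 6 passed the test between P7 platelets and control (2 higher, 4 lower), where 59.2% of all tested genes passed. The groups did not overlap for 8 of the 10, against 69.1% of all genes. The share of members that moved was thus near the background. Their median log2 fold change was -0.44, beside -0.01 over all genes. Between adult platelets and control 1 of 10 passed (background 26.4%) and 1 did not overlap (background 42.7%). Between P7 and adult platelets 8 of 10 passed, 2 higher and 6 lower, against a background of 39.6% (19.7% higher and 19.8% lower). There the groups did not overlap for 6 of 10, against 49.0% of all genes, and the median was -0.52 beside -0.02. The comparisons share libraries, so their values stand side by side and are not independent.

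**Figure D1:**
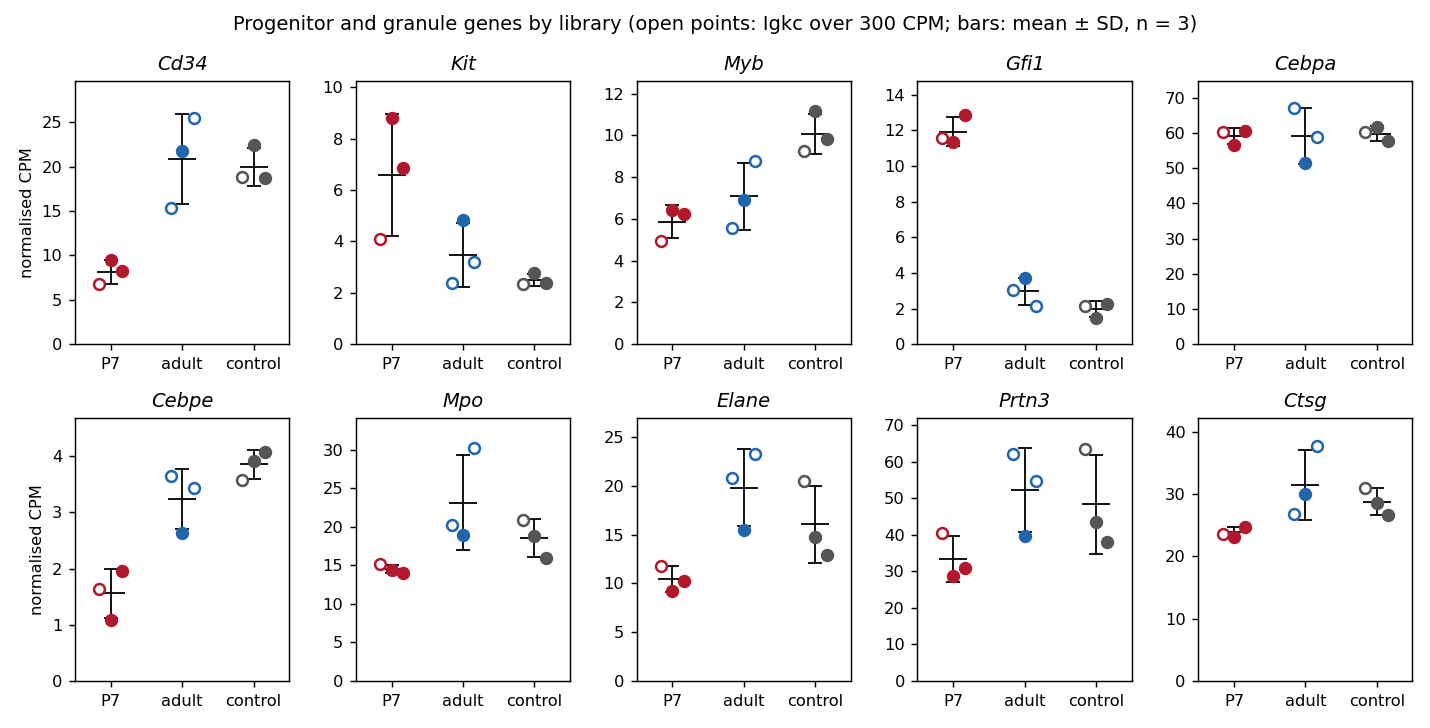
Normalised CPM (y axis, from 0) of each gene in every library, grouped on the x axis as P7 platelets, adult platelets and control; bars are the mean ± SD of 3 libraries and open points are the 4 libraries with Igkc over 300 CPM. Gfi1 stands at 11.4 to 12.9 CPM in the P7 libraries and under 4 CPM in the other 6, while Cebpa lies at similar heights in all groups.

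Cd34, a sialomucin of haematopoietic progenitors that is also found on endothelium and mast cells, had 6.73, 9.43 and 8.29 CPM in the libraries of P7 platelets. It had 15.4, 21.7 and 25.5 CPM with adult platelets, and 18.8, 22.4 and 18.7 CPM in control. Every P7 library lay below every other library. Relative to control, Cd34 fell by 1.3 ± 0.19 on the log2 scale (SE) after P7 platelets, 2.46-fold lower (adjusted p = 0.000291, edgeR's quasi-likelihood test with Benjamini-Hochberg adjustment, used throughout). Relative to adult platelets it fell by 1.36 ± 0.19 (adjusted p = 0.000631). Adult platelets against control gave 0.06 ± 0.18, with a 95% interval of -0.33 to 0.46 (adjusted p = 0.823). Of the 13707 genes, 540 had a lower log2 fold change than Cd34 in P7 platelets against control, and 200 did in P7 against adult platelets. Of the endothelial list 3 genes were tested. Its share was 0.0035% to 0.00406% after P7 platelets, 0.00368% to 0.00524% after adult platelets and 0.00317% to 0.00369% in control; its part in the Cd34 values was not tested.

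Kit, the receptor for stem cell factor, moved the other way. Its levels were 4.08, 8.82 and 6.87 CPM after P7 platelets, 2.37, 4.83 and 3.20 CPM after adult platelets, and 2.35, 2.78 and 2.38 CPM in control. The P7 libraries lay above all control libraries but overlapped the adult platelet libraries. Kit rose by 1.39 ± 0.31 with P7 platelets over control (adjusted p = 0.00373). Adult platelets over control gave 0.47 ± 0.31 (adjusted p = 0.3), with a 95% interval of -0.23 to 1.18. The difference of P7 from adult platelets was 0.92 ± 0.31 (adjusted p = 0.0387), and it missed the threshold when any one library other than P7 replicate 1 or adult replicate 2 was left out, with adjusted p up to 0.154 and a fold change of 0.66 without P7 replicate 2. In the P7 and adult groups Kit was lowest in replicate 1, which had high Igkc. Among the libraries with Igkc over 300 CPM the P7 change over control was 0.80 (adjusted p = 0.214, 1 P7 library against 1 control library, with the 2 adult libraries giving the spread). Among those under 300 CPM Kit in adult platelets against control was 0.91. That arm is adult replicate 2 alone, the highest adult library for Kit, taken to vary like the other groups. The split was made after the values were seen. Over all libraries, with a term for those over 300 CPM of Igkc, Kit passed between adult platelets and control at 0.64 (adjusted p = 0.0452). That comparison stayed uncalled in 20 of 22 alternative fits. Early red cell precursors carry KIT, and the erythroid share given above was also highest after P7 platelets; its part in the Kit values was not tested. Mast cells carry KIT too. Of the 11 basophil and mast cell genes 8 were tested and 1, Hdc, passed between P7 platelets and control, at 0.35 ± 0.12. The list held 0.0177% to 0.0338% of counts after P7 platelets, 0.0184% to 0.0384% after adult platelets and 0.0195% to 0.0409% in control, and its mast cell protease genes Cma1, Tpsb2 and Mcpt4 had at most 5, 5 and 3 counts in any library. The ratio of Kit to Cd34 counts, examined after the values were seen, was 0.607 to 0.936 in P7 libraries, 0.126 to 0.222 in adult platelet libraries and 0.124 to 0.128 in control.

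Myb, the progenitor transcription factor whose core is marked in the promoters above, had 4.95, 6.45 and 6.23 CPM after P7 platelets. The adult platelet libraries had 5.57, 6.92 and 8.78 CPM and the control libraries 9.25, 11.2 and 9.83 CPM. Both platelet groups lay wholly below control and overlapped each other. Myb fell by 0.78 ± 0.17 after P7 platelets relative to control (adjusted p = 0.0031). With adult platelets it fell by 0.51 ± 0.16 (adjusted p = 0.0494). Leaving out any single library other than P7 replicate 1 or adult replicate 3 ended this call, in 7 of 9 such fits, with the highest adjusted p, 0.164 at -0.43, without control replicate 2. P7 against adult platelets gave -0.27 ± 0.17, with a 95% interval of -0.66 to 0.11 (adjusted p = 0.238).

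Gfi1, which encodes the repressor that drives the neutrophil branch, had the largest change of the 10. It had 11.5, 11.4 and 12.9 CPM after P7 platelets, 3.05, 3.69 and 2.17 CPM after adult platelets, and 2.15, 1.47 and 2.28 CPM in control. The P7 libraries stood far above the other 6, and the adult platelet libraries overlapped control. The P7 rise over control was 2.60 ± 0.21 (adjusted p = 9.65e-06), and 443 of the 13707 genes had a higher log2 fold change. Over adult platelets the rise was 2.0 ± 0.20, or 4.01-fold (adjusted p = 0.000156). Adult platelets over control gave 0.59 ± 0.21 (adjusted p = 0.0698), with a 95% interval of 0.11 to 1.07. This difference passed without adult replicate 3, at 0.78 (adjusted p = 0.0186), and with DESeq2 (adjusted p = 0.0333). It stayed uncalled in 19 of 22 alternative fits. The ratio of Gfi1 to Cebpa counts, also examined after the values were seen, was 0.192 to 0.212 in P7 libraries, 0.0367 to 0.0719 in adult platelet libraries and 0.0239 to 0.0395 in control.

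Gfi1b, the paralogue of Gfi1 that acts in megakaryocytes and red cell precursors, averaged 16.3 ± 2.22 CPM after P7 platelets, 4.10 ± 0.793 CPM after adult platelets and 1.93 ± 0.215 CPM in control (SD, n = 3 each). It rose by 3.08 ± 0.17 with P7 platelets (adjusted p = 1.28e-06) and by 1.08 ± 0.17 with adult platelets (adjusted p = 0.00204). Platelet and erythroid marker shares were higher than control in every platelet library, whereas in the main fit Gfi1 passed over control with P7 platelets alone. Adult replicate 3, with a platelet share of 0.135%, had 2.17 CPM of Gfi1. P7 replicates 2 and 3, with platelet shares of 0.123% and 0.127%, had 11.4 and 12.9 CPM. The platelet share overlapped between P7 and adult libraries, although 10 of 13 platelet genes were higher and 1 lower with P7 platelets (median 1.11), while the erythroid share was higher in every P7 library than in any adult library, and the part of either in the Gfi1 and Gfi1b values was not tested. Among named genes with a mean log2 CPM of at least 2, those whose log2 CPM followed Gfi1 most closely over the 9 libraries were Katna1, a subunit of the microtubule-severing enzyme katanin (Pearson r = 0.996), the interferon-inducible gene Ifi211 (0.994) and the zinc-finger gene Zfand5 (0.994). Such r values are a description, largely set by the step between the groups. Of these, Ifi211 rose by 2.94 ± 0.25 with P7 platelets over control and Katna1 by 0.35 ± 0.04, so a close pattern did not mean a like size.

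Of 13 tested genes known as GFI1 targets in other settings, 5 were higher and 4 lower after P7 platelets than in control, where 29.9% and 29.3% of all genes were. Their median was 0.25. With adult platelets 1 was higher and 1 lower. Csf1, the monocyte growth factor gene that GFI1 represses in mouse progenitors, averaged 41.2 ± 13 CPM after P7 platelets, 17.2 ± 2.42 CPM after adult platelets and 83.7 ± 21.9 CPM in control. It fell by 1.02 ± 0.25 with P7 platelets and by 2.28 ± 0.27 with adult platelets, and P7 exceeded adult platelets by 1.26 ± 0.27 (adjusted p = 0.00505). Csf1r, its receptor, rose by 0.73 ± 0.12 with P7 platelets, and Cdkn1a, which encodes the cell cycle inhibitor p21, by 1.25 ± 0.16. Il6ra, the interleukin-6 receptor chain, fell by 1.03 ± 0.09 with P7 platelets. Elane and Gfi1b are also on that list.

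Cebpa encodes C/EBP alpha, which opens the granulocyte-monocyte path. Its levels were 60.2, 56.6 and 60.6 CPM after P7 platelets, 67.2, 51.4 and 59.0 CPM after adult platelets, and 60.3, 61.6 and 57.6 CPM in control. The 3 groups overlapped. P7 platelets against control gave -0.02 ± 0.09, with a 95% interval of -0.21 to 0.18 (adjusted p = 0.882). P7 against adult platelets gave 0.00 ± 0.09, with an interval of -0.20 to 0.20 (adjusted p = 0.999).

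Cebpe, the late granulocytic member of the family, was read 29 to 161 times per library. It had 1.64, 1.09 and 1.96 CPM after P7 platelets, 3.64, 2.63 and 3.44 CPM after adult platelets, and 3.58, 3.91 and 4.08 CPM in control. The P7 libraries lay below the other 6. It fell by 1.29 ± 0.21 after P7 platelets relative to control (adjusted p = 0.000674) and by 1.04 ± 0.22 relative to adult platelets (adjusted p = 0.00462). Adult platelets against control gave -0.25 ± 0.20, with a 95% interval of -0.71 to 0.21 (adjusted p = 0.398). Gfi1 and Cebpe, which act together in neutrophil maturation, thus moved in opposite directions with P7 platelets.

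**Figure D2:**
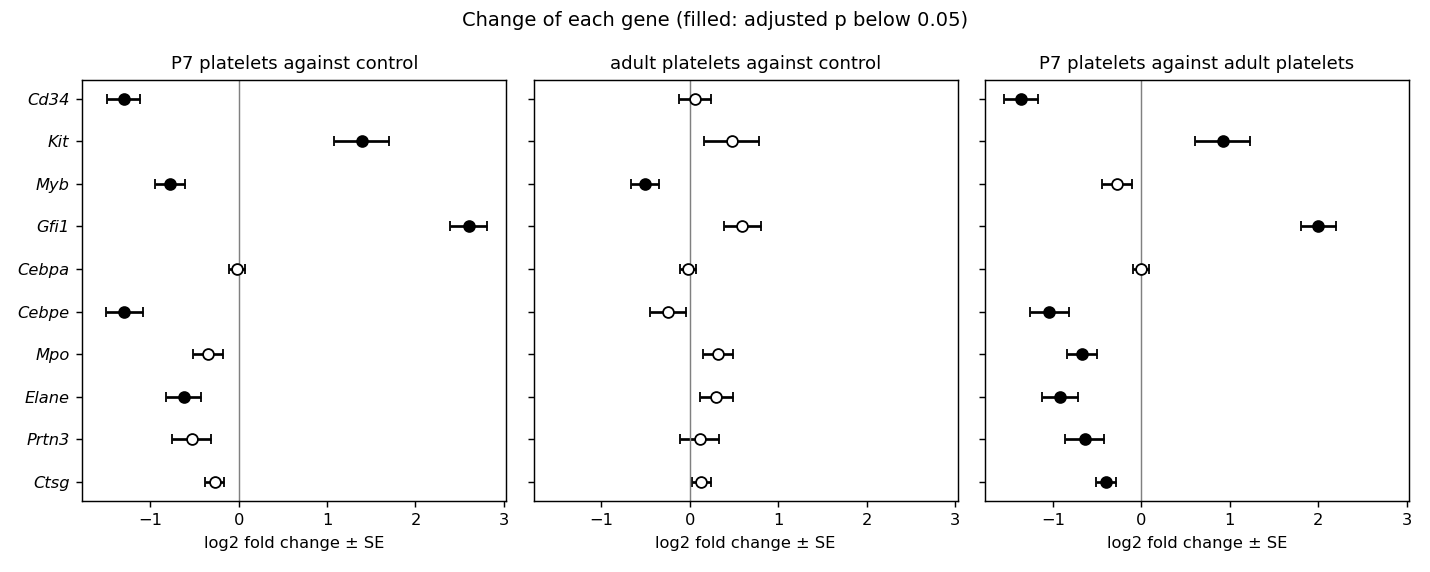
Log2 fold change (x axis) ± SE of each gene (y axis) in the 3 comparisons, P7 platelets against control, adult platelets against control and P7 against adult platelets; filled points have an adjusted p below 0.05. Filled points lie on both sides of 0 in the panels with P7 platelets, with Gfi1 farthest right at 2.60 and 2.0, and Myb is the single filled point for adult platelets against control.

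Mpo encodes myeloperoxidase, which makes hypochlorous acid. It had 15.2, 14.4 and 14.0 CPM after P7 platelets, 20.3, 18.9 and 30.2 CPM after adult platelets, and 20.9, 18.7 and 15.9 CPM in control. The P7 libraries lay below all others. Mpo fell by 0.67 ± 0.17 after P7 relative to adult platelets (adjusted p = 0.0126). P7 platelets against control gave -0.35 ± 0.17, with a 95% interval of -0.74 to 0.04 (adjusted p = 0.107), a difference that passed without adult replicate 3, at -0.35 (adjusted p = 0.0142). Fitted to the P7 and control libraries alone it also passed, at -0.34 with the replicate number as a block (adjusted p = 0.00581) and at -0.35 without it (adjusted p = 0.0185). The P7 difference from control stayed uncalled in 18 of 22 alternative fits. Adult replicate 3 held the highest Mpo, Elane and Ctsg of the 9 and the largest share of the later neutrophil list.

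Elane encodes neutrophil elastase. Its levels were 11.8, 9.20 and 10.3 CPM after P7 platelets, 20.8, 15.5 and 23.2 CPM after adult platelets, and 20.5, 14.7 and 12.9 CPM in control. Here too the P7 libraries lay below all others. Elane fell by 0.92 ± 0.20 after P7 relative to adult platelets (adjusted p = 0.00536), a call kept in all 22 alternative fits. It fell by 0.62 ± 0.20 relative to control (adjusted p = 0.0225). That call was lost without P7 replicate 2 (-0.54, adjusted p = 0.0793), without P7 replicate 3 (-0.61, adjusted p = 0.062) or without control replicate 1 (-0.41, adjusted p = 0.0795).

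Prtn3 encodes proteinase 3 and is the neighbour of Elane. It had 40.6, 28.8 and 30.9 CPM after P7 platelets, 62.3, 39.8 and 54.7 CPM after adult platelets, and 63.6, 43.4 and 38.0 CPM in control. The groups overlapped, because P7 replicate 1 lay above the lowest adult and control libraries. In each group the highest Prtn3 was in replicate 1, a library with high Igkc. Prtn3 against control was -0.53 ± 0.22 after P7 platelets (adjusted p = 0.0668). With the replicate number as a block it was -0.52 (adjusted p = 0.0045), and where the fit marked the libraries over 300 CPM of Igkc it was -0.52 (adjusted p = 0.00027). It also passed with DESeq2 (-0.52, adjusted p = 0.0287), without a filter on low counts (-0.55, adjusted p = 0.0181) and with upper-quartile scaling (-0.63, adjusted p = 0.0373). Leaving out 1 library, it passed without P7 replicate 1, adult replicate 2 or control replicate 3, at -0.69, -0.52 and -0.68 (adjusted p = 0.0376, 0.0487 and 0.0349). In 12 of 22 alternative fits Prtn3 against control stayed uncalled, with adjusted p up to 0.258 when 1 library was left out. Relative to adult platelets Prtn3 fell by 0.64 ± 0.22 (adjusted p = 0.0467). This call was lost without P7 replicate 2 or 3, adult replicate 1 or 3, or control replicate 2, at -0.64 to -0.50 (adjusted p = 0.0614 to 0.15).

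Ctsg encodes cathepsin G. It had 23.7, 23.2 and 24.7 CPM after P7 platelets, 26.8, 30.1 and 37.7 CPM after adult platelets, and 31.0, 28.6 and 26.7 CPM in control. The P7 libraries lay in a narrow band below all others. Ctsg fell by 0.40 ± 0.11 after P7 relative to adult platelets (adjusted p = 0.0206), a call lost without P7 replicate 2 (-0.38, adjusted p = 0.0709). P7 platelets against control gave -0.27 ± 0.11 (adjusted p = 0.067) and passed without adult replicate 1 or 3, at -0.27 in each (adjusted p = 0.0309 and 0.0107). In the P7 and control libraries alone it passed at -0.27 with the replicate block (adjusted p = 0.0111) and without it (adjusted p = 0.00786). The P7 difference from control stayed uncalled in 15 of 22 alternative fits.

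None of the 4 granule genes passed between adult platelets and control, where the log2 fold changes were 0.32 ± 0.17 for Mpo, 0.30 ± 0.19 for Elane, 0.11 ± 0.22 for Prtn3 and 0.13 ± 0.11 for Ctsg. All 4 estimates lay above 0. Together the 4 genes took 0.00675% to 0.00824% of the raw counts after P7 platelets, 0.0106% to 0.0153% after adult platelets and 0.00996% to 0.0149% in control. The P7 range lay below both others, but raw counts include the erythroid counts, which were highest after P7 platelets. The ratio of Prtn3 to Elane counts was 3.00 to 3.44 in P7 libraries, 2.36 to 3.00 in adult platelet libraries and 2.94 to 3.11 in control. The ratio of Mpo to Elane was 1.28 to 1.56 in P7 libraries, 0.976 to 1.3 in adult platelet libraries and 1.02 to 1.27 in control. Both ratios were examined after the values were seen and have no test.

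**Figure D3:**
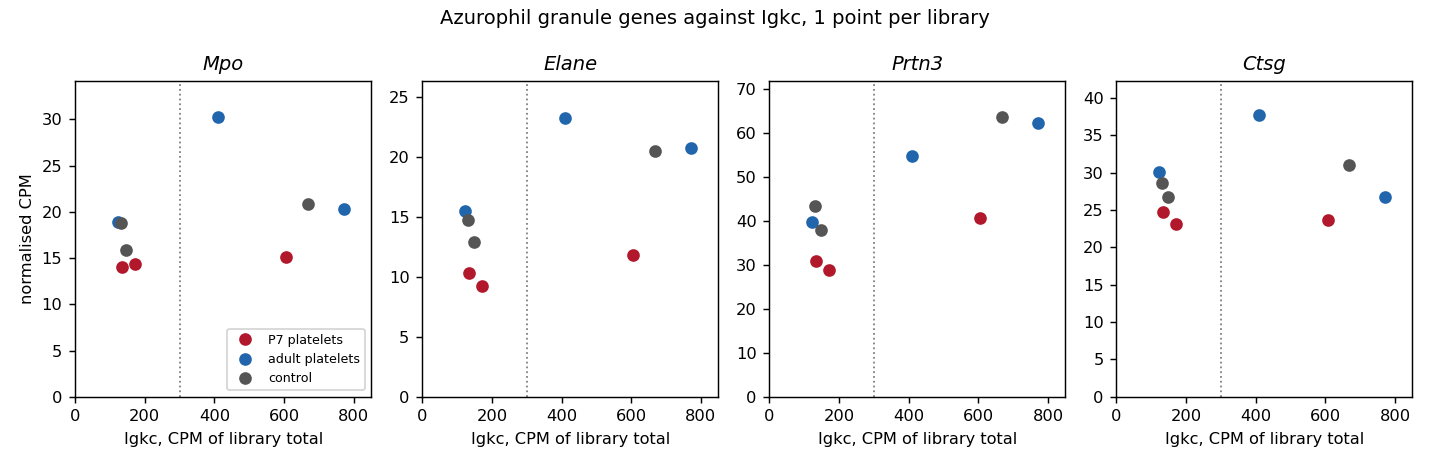
Normalised CPM of Mpo, Elane, Prtn3 and Ctsg (y axes, from 0) against Igkc in CPM of the library total (x axis), 1 point per library, with a dotted line at 300 CPM; colours mark P7 platelets, adult platelets and control. On each side of the line the P7 points lie below the adult and control points for all 4 genes, and Prtn3 and Elane stand higher on the right within each group.

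Within the libraries under 300 CPM of Igkc, Prtn3 after P7 platelets against control was -0.44 (adjusted p = 0.000251), Mpo -0.28 (adjusted p = 0.0136) and Ctsg -0.20 (adjusted p = 0.0123), with 2 libraries in each group and 1 adult library in the fit. Within those over 300 CPM the groups hold 1 P7, 2 adult and 1 control library, and P7 against adult platelets gave -0.73 for Mpo, -0.52 for Prtn3 and -0.44 for Ctsg, none of which passed (adjusted p = 0.163, 0.112 and 0.328). The split was made after the values were seen.

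Per kilobase of exon, the control order of mean levels was Prtn3 (27.9 ± 7.80 CPM per kb, SD), Ctsg (27.9 ± 2.08), Cebpa (22.7 ± 0.761), Elane (16.3 ± 4.00), Mpo (5.41 ± 0.729), Cebpe (3.11 ± 0.206), Cd34 (2.74 ± 0.293), Myb (1.13 ± 0.109), Gfi1 (0.617 ± 0.137) and Kit (0.281 ± 0.0270). Prtn3 and Ctsg did not differ beyond their spread, nor did Prtn3 and Cebpa. After P7 platelets the order was Ctsg (23.1 ± 0.779), Cebpa (22.4 ± 0.838), Prtn3 (19.3 ± 3.64), Elane (10.6 ± 1.33), Mpo (4.24 ± 0.169), Gfi1 (3.74 ± 0.255), Cebpe (1.26 ± 0.353), Cd34 (1.12 ± 0.186), Kit (0.740 ± 0.267) and Myb (0.658 ± 0.0904). Gfi1 thus stood ninth of the 10 in control and sixth after P7 platelets, next to Mpo. In adult platelet libraries Gfi1 had 0.932 ± 0.240 CPM per kb and Kit 0.389 ± 0.141, and Kit was the lowest of the 10 there too. Among all 13475 genes with a length, Gfi1 ranked 7247 after P7 platelets and 10694 in control.

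Other genes of the same programme did not follow a single direction. Of 15 tested genes of early granule content and processing other than the 4 above, 7 were higher and 2 lower after P7 platelets than in control, with a median of 0.30. Slpi, which encodes a secreted inhibitor of elastase and cathepsin G, averaged 232 ± 26.8 CPM after P7 platelets, 70.4 ± 22.9 CPM after adult platelets and 35.9 ± 5.67 CPM in control. It rose by 2.69 ± 0.24 with P7 platelets (adjusted p = 1.49e-05) and by 0.97 ± 0.23 with adult platelets (adjusted p = 0.0135), and the second call was lost without control replicate 2 or 3 (0.90 and 0.91, adjusted p = 0.0582 and 0.0547). Srgn, which encodes the proteoglycan core that packs granule proteases, rose by 1.11 ± 0.10 with P7 platelets and by 0.45 ± 0.10 with adult platelets. Calr, a chaperone needed to fold myeloperoxidase, rose by 0.77 ± 0.08 with P7 platelets, and Ctsc, which encodes the dipeptidyl peptidase that activates elastase, proteinase 3 and cathepsin G, by 0.42 ± 0.06. Mgst1, a microsomal glutathione transferase, fell by 0.63 ± 0.06. Serpinb1a, which encodes another protease inhibitor, was at 0.07 ± 0.11 (adjusted p = 0.611). Platelets carry serglycin too, and the platelet marker shares given above moved with Srgn, whose origin was not tested. Ctsc and Serpinb1a were picked by function after their values were seen.

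Of 15 tested later neutrophil genes, 3 were higher and 1 lower after P7 platelets than in control, with a median of 0.01. Lcn2, the lipocalin of secondary granules and a reported acute-phase gene of macrophages, rose by 0.79 ± 0.22, and S100a8, a calprotectin subunit, by 0.51. The S100a8 call was lost in 5 of 9 fits without 1 library, all 3 without a P7 library and those without control replicate 1 or 2 (0.48 to 0.55, adjusted p = 0.0508 to 0.0794). Cd177, a neutrophil surface gene, fell by 0.42, a call lost without P7 replicate 1 or control replicate 2 or 3 (-0.39 to -0.29, adjusted p = 0.0744 to 0.0792). Stfa2, a stefin gene of myeloid cells, was the other one higher, with a mean of 0.844 CPM after P7 platelets, no counts after adult platelets and 0.0251 CPM in control. With adult platelets 1 gene was higher and 0 lower. The list took 0.127% to 0.148% of counts after P7 platelets, 0.151% to 0.228% after adult platelets and 0.164% to 0.199% in control. As a share of raw counts, which include the erythroid counts, the list was lower in every P7 library than in all others, as were the 4 granule genes. After TMM scaling its median in P7 platelets against control was the 0.01 given above, beside -0.44 for the 4 granule genes. In P7 against adult platelets its median was -0.32, beside -0.66 for the granule genes. In adult platelets against control it was 0.43, beside 0.22 for the granule genes. The part of this list in their values was not tested.

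Among 21 tested myeloid and progenitor transcription factors other than the 4 above, 9 were higher and 3 lower after P7 platelets than in control, with a median of 0.30. Those above included Cebpb, the C/EBP factor of activated monocytes, at 0.92 ± 0.11, Cebpd at 0.81 ± 0.08 and Spi1, which encodes PU.1, at 0.71 ± 0.07. Cebpb, Cebpd and Spi1 thus rose while Cebpa was level and Cebpe fell. With adult platelets 4 were higher and 2 lower. Myc, a growth regulator, rose by about the same amount with either platelet kind, 1.24 ± 0.15 with P7 platelets and 1.27 ± 0.14 with adult platelets, and P7 against adult platelets gave -0.03 (adjusted p = 0.87). Lmo2, a bridging factor of stem and red cell progenitors, fell by 0.51 ± 0.07 with adult platelets and was -0.08 with P7 platelets (adjusted p = 0.349), with P7 above adult platelets by 0.43. Of 12 proliferation genes, 8 were higher and 1 lower with P7 platelets, among them Mcm5, a replication helicase subunit, at 0.33 ± 0.05, while Mki67, the Ki-67 gene, stood at 0.02 (adjusted p = 0.841). With adult platelets 9 of the 12 were higher and 0 lower.

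Of 10 tested genes known as C/EBP alpha targets, 4 were higher and 3 lower after P7 platelets than in control, with a median of 0.06. Gfi1, Mpo, Elane and Cebpe are on that list. With adult platelets 0 of 10 passed in either direction, where 14.3% of all genes were higher and 12.0% lower.

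Of 16 other progenitor receptors and markers, 9 were higher and 3 lower after P7 platelets than in control, with a median of 0.43, and 4 were higher and 2 lower after adult platelets. Slamf1, which encodes the surface receptor CD150 of stem cells and platelets, had a mean of 15.6 CPM after P7 platelets, 13.5 CPM after adult platelets and 0.0258 CPM in control. It was close to 0 without platelets and rose with the platelet markers. Procr, the protein C receptor gene of stem cells and endothelium, rose by 2.23 ± 0.18 with P7 platelets and 1.28 ± 0.18 with adult platelets, and Adgrg1, which encodes the adhesion receptor GPR56, by 2.97 ± 0.25 and 2.47 ± 0.25. Against these, Cd93, a progenitor and monocyte surface gene, fell by 1.3 ± 0.12 with P7 platelets. With adult platelets Cd93 also fell, by 0.62 ± 0.12 (adjusted p = 0.00623). Flt3, the receptor gene of early and dendritic progenitors, fell by 0.58 ± 0.18 with P7 platelets. This call was lost without P7 replicate 1 or control replicate 2 (-0.46 and -0.51, adjusted p = 0.0633 and 0.0634). Flt3 and Cd93 were picked after their values were seen. Cd34, Cd93 and Flt3 therefore fell in the same P7 libraries in which Kit rose.

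**Figure D4:**
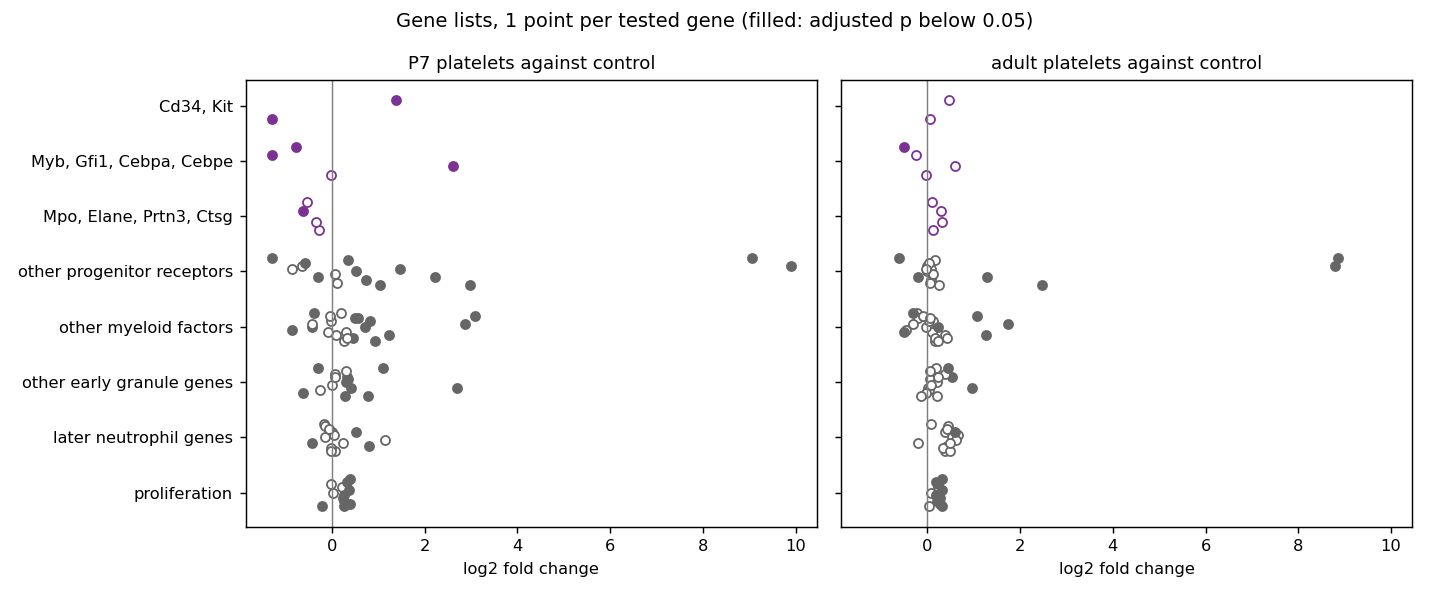
Log2 fold change (x axis) of each tested gene in the 3 groups of followed genes and in 5 further lists (y axis), for P7 platelets against control and adult platelets against control; filled points have an adjusted p below 0.05, and Stfa2, with no counts after adult platelets, is not drawn. In the first panel the early granule list lies mostly right of 0 while Mpo, Elane, Prtn3 and Ctsg lie left of it; the points beyond 8 include Slamf1, whose control level is near 0.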

How the data were processed

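Libraries were stranded polyadenylated RNA libraries read as 75 nt single ends, per the labels' protocols. The deposited values are raw counts of reads per gene symbol, made by the authors with STAR 2.7.6a, featureCounts of Subread 2.0.1, Salmon 1.3.0 and the trimmer fastp 0.20.1, per the submitters' processing notes, which give no role or order. Which build, annotation and strand setting the counting used is not given in the sources used here. Gene positions come from GENCODE M21 (GRCm38) and promoters from RefSeq (GRCm38.p6), which had 9 of the 10 genes. Exon length was the merged exons of a gene.

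Counts were fitted with edgeR 4.0.16 in R 4.3.3 to all 9 libraries, 1 mean for each group, after TMM scaling. The filterByExpr filter at a minimum count of 10 kept 13707 genes, and the fit had 6 residual degrees of freedom and a common dispersion of 0.013 (biological coefficient of variation 0.114). Calls used edgeR's quasi-likelihood test with a Benjamini-Hochberg adjusted p below 0.05 over all genes of a comparison. The SE of a log2 fold change is its size divided by the square root of F. CPM uses TMM-scaled library sizes. Marker shares, Igkc and the count ratios use raw counts. The fit was afterwards run on counts simulated from its own means and dispersions, with the outcome not reported here. Total counts of 29687341 to 37065564 per library set the precision: Cebpe had 29 to 161 counts, Gfi1 56 to 400 and Kit 76 to 234, so counting error is widest for these genes.

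The genes, the lists and the tests were chosen with earlier results of these data known. Named genes were the 10, up to 4 of each list by smallest p after P7 platelets and up to 2 after adult platelets, and the 3 most like Gfi1 among genes with a mean log2 CPM of at least 2 and no predicted or clone name. Some of these are not reported here. The labels give only a replicate number, and the data do not settle whether it pairs libraries. Same-numbered deviations from the group means correlated at 0.576, 0.209 and 0.335 between P7 and control libraries. Differently numbered ones reached 0.205 for P7 replicate 2 with control replicate 3, and 0.307 for P7 replicate 3 with control replicate 2. The fit with the replicate number as a block is given beside Prtn3. For the P7 and control libraries alone it is given beside Mpo and Ctsg. There it called 9 of the 10 genes, and 9003 of all 13386 genes tested. Alternatives were other size factors, filters and tools (DESeq2 1.42.0, limma 3.58.1), the 2 groups alone, the block, an Igkc term and each library left out. Fits within the Igkc split, and the block in 2 groups alone, were added after the data were seen.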

Additional observations from a re-analysis of the deposited data

How the results depend on the processing

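Over the 30 values of the 10 genes and 22 alternatives, 594 of 660 kept their side of the threshold. Of the rest, 38 lost a call, 27 gained one and 1 reversed. A reversal was counted only where the main or the alternative fit made a call. Uncalled values that changed sign are among the 594, such as Cd34 in adult platelets against control, from -0.1 to 0.24. The reversed value was Cebpa in P7 against adult platelets, at 0.19 among the libraries under 300 CPM of Igkc (1 adult library). Of the other named genes, S100a8 reversed in the same comparison and setting, at 0.35. The number of the 10 genes called between adult platelets and control was 0 with DESeq2 size factors (3619 of 13707 genes in all). It was 0 with the 2 groups alone (2999 of 13376) and 2 with DESeq2's own test (3803 of 13707). With 1 library left out it was 5 to 8 in P7 platelets against control, 0 to 2 in adult platelets against control and 5 to 8 in P7 against adult platelets. Libraries over 300 CPM of Igkc alone gave 3 called between P7 platelets and control and 3 between the platelet kinds, with 1780, 839 and 308 genes called in all in P7 platelets against control, P7 against adult platelets and adult platelets against control. There 4 libraries remain, which leaves fewer degrees of freedom. Called genes numbered 7101 to 8482, 3978 to 5540 and 2031 to 3774 in these comparisons with 1 library left out, with the lowest count of the third, 2031, without control replicate 2. The replicate block over 9 libraries gave 7, 1 and 8 of the 10 genes called in P7 platelets against control, adult platelets against control and P7 against adult platelets, with 8565, 4228 and 5965 genes in all; Prtn3 was the single call it changed among the 10. The block on the P7 and control libraries alone called 9 of the 10, and 9003 of all 13386 genes tested. For adult libraries, same-numbered deviations correlated at 0.557, 0.346 and -0.0768 with control and at 0.486, 0.281 and -0.0813 with P7. Differently numbered ones lay between -0.558 and 0.424 with control and between -0.535 and 0.428 with P7. Upper-quartile scaling moved the median of all genes to -0.12 in P7 platelets against control, with 3279 higher and 5012 lower calls against 4097 and 4014, and to -0.10 in P7 against adult platelets, with 2106 and 3556 against 2706 and 2718. Under it Prtn3 and Ctsg also passed between P7 platelets and control, at -0.63 and -0.37, and no called value of the 10 genes reversed. Cebpe, Gfi1 and Kit, with the fewest reads, are the most limited by counting error.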
